A study of Caenorhabditis elegans with 2 samples.

Results

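The genes described here are the 10 Wnt asymmetry genes of the nematode Caenorhabditis elegans: mom-1, mom-2, mom-4, mom-5, apr-1, lit-1, wrm-1, sys-1, bar-1 and pop-1. They were chosen by name, as a list for the polarised divisions of the early embryo, and with earlier results of these data known. Among them, bar-1 belongs to a Wnt pathway best known from larval cells. All 10 were found among the 19973 protein-coding genes of the annotation. The protein mapped, by chromatin immunoprecipitation and sequencing, was the T-box factor TBX-37, which acts in descendants of the ABa blastomere. The single group was strain RW12282, in which the endogenous tbx-37 gene carries a TY1, EGFP and 3xFLAG insertion (allele st12282, chromosome III), with the fusion protein recovered by an antibody against GFP. It held 2 biological replicates of whole early embryos at 0 hours after egg bleaching. There was no other genotype or treatment. Whole embryos cannot show in which cell a region was bound. Tagged protein was not measured in the files used here. The data are lists of regions with no counts of reads, and sequencing depth is therefore unknown. The conservative list held 1107 peaks and is a subset of 66355 candidate regions scored for their reproducibility between the replicates. Each replicate also had a ranked list made from its own reads, of 39578 candidates for replicate 1 and 44219 for replicate 2.

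In this pathway a Wnt ligand reaches a Frizzled receptor, and kinases and beta-catenins then change the nuclear level and activity of POP-1, a factor of the TCF family. Sister cells of many anterior-posterior divisions in the worm embryo come to differ in nuclear POP-1, and the best known case is the division of EMS, where the signal is needed for endoderm. WRM-1 acts with the kinase LIT-1 to lower nuclear POP-1, whereas SYS-1 binds POP-1 and turns it into an activator.

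The regions shown here are the conservative peak upstream of wrm-1, the conservative peak inside mom-1, and the strongest candidate at bar-1, which missed the threshold but holds a T-box consensus. All are plus-strand sequence of the RefSeq copy of WBcel235, the assembly called ce11 in the files. Capitals mark the T-box consensus AGGTGTGA in the bar-1 region, and matches to the searched motifs on either strand in the other 2 regions.
wrm-1 promoter peak, III:5721957-5722212: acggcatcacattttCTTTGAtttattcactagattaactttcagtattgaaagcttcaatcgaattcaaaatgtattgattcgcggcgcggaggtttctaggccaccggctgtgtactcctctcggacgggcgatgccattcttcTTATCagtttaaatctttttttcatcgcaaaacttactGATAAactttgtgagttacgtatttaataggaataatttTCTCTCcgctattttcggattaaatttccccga
mom-1 intron peak, X:6296437-6296692: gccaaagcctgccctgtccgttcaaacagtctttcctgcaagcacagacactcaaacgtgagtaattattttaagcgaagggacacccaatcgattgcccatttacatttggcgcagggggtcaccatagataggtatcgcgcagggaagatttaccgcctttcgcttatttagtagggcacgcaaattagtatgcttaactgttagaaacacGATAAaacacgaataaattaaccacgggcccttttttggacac
bar-1 upstream candidate, X:7170873-7171128: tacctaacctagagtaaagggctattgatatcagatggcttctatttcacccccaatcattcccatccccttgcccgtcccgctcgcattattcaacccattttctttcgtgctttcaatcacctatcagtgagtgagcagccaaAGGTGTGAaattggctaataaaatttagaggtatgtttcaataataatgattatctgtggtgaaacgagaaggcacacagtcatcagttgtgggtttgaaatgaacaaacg

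A conservative peak lay within 5000 bp or in the gene body of 3 of the 10 genes: mom-1 with 2 peaks, and sys-1 and wrm-1 with 1 each. The same criterion was met by 2947 of 19973 protein-coding genes (14.8%). The windows of the members had a median length of 14.9 kb against 12 kb for all genes, and the part of this in the count was not tested. Of the 4 peaks, only the one at wrm-1 was closer to the start of the member than to that of a neighbour. Within 2000 bp or in the gene body the count was again 3 of 10, against 9.19%, and in the gene body alone it was 1 of 10, mom-1, against 2.65%. In the own lists of the replicates, replicate 1 had a peak at 2 members, mom-1 and sys-1 (7.62% of all genes), and replicate 2 at 4, which were those of the conservative list and pop-1 (11.4%). With each peak given to its nearest gene start, 1 of 10 members had a peak, against 4.69% of all genes. A summit lay in the promoter (from 1000 bp before the start to 200 bp past it) of mom-1 and wrm-1, which is 2 of 10 members against 4.11% of all genes. The 7 members without a peak had their nearest conservative peak 9745 bp (mom-5), 10747 bp (pop-1), 23904 bp (mom-4), 58179 bp (lit-1), 73181 bp (mom-2), 94400 bp (bar-1) and 167609 bp (apr-1) from the gene body. The peak nearest to mom-5 is the one at the end of sys-1, since the genes lie close together on chromosome I, but no candidate fell in the windows of more than 1 member.

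The strongest region of all members lay beside mom-1, which encodes a Porcupine homolog that acylates Wnt ligands for secretion. Its upstream peak had a signal value of 416.9, the authors' own score for each region, which was used only within a list. It ranked 62 of 66355 candidates and 16 of 1107 conservative peaks, with an irreproducible discovery rate (IDR) of 1e-05, the lowest that the list holds. Replicate 1 ranked it 57 with a signal value of 173.1, and replicate 2 ranked it 67 with a signal value of 247.8, with summits 8 bp apart. It was among the peaks of each replicate, at rank 9 of 538 in replicate 1 and rank 18 of 817 in replicate 2. Only 0.526% of protein-coding genes had a stronger strongest candidate than mom-1. The summit lay 788 bp upstream of mom-1 and 592 bp upstream of the divergent gene lev-9, and within 100 bp of a tRNA gene. A small RNA gene lay within 100 bp of the summit at 300 of the 1107 conservative peaks, and the part of the tRNA gene in the mom-1 value was not tested.

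The other mom-1 peak, at X:6296437-6296692, lay in an intron 3453 bp past the start and had no small RNA gene beside it. It had a signal value of 132, ranked 509 among the candidates and 379 among the conservative peaks, and had an IDR of 0.0025. The replicates differed here. Replicate 2 had it at rank 360 with a signal value of 105.4 and in its own list of peaks, whereas in replicate 1 it ranked 2022 with a signal value of 27.5, had an IDR of 0.536 and was not among the peaks. The summit of replicate 1 lay 80 bp and that of replicate 2 lay 20 bp from the series-wide summit.

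**Figure D1:**
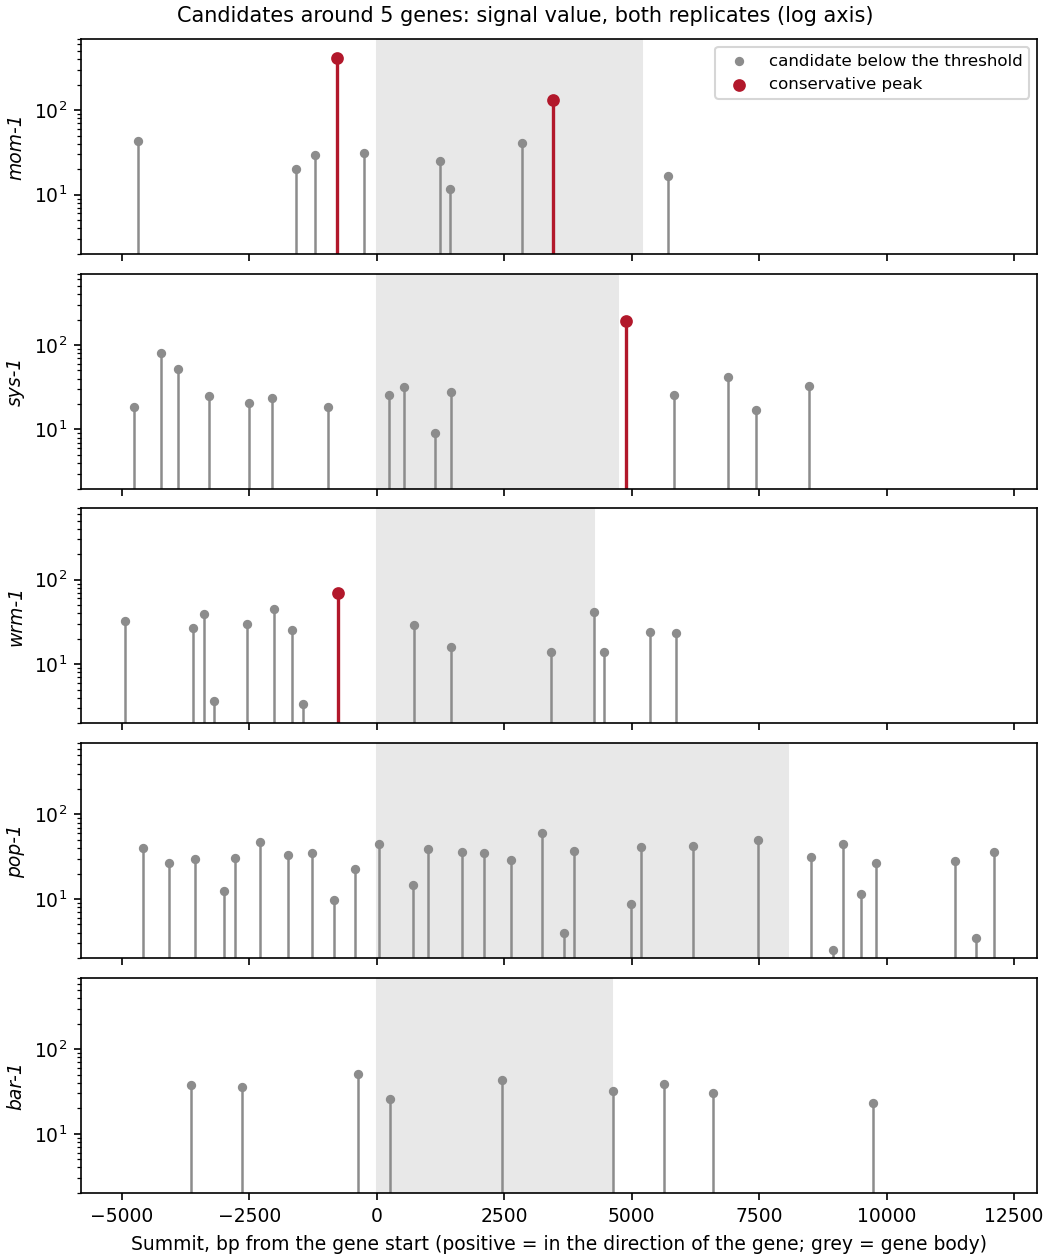
Signal value of each series-wide candidate (log axis) against the distance of its summit from the gene start in bp, for mom-1, sys-1, wrm-1, pop-1 and bar-1, with the gene body in grey. The 4 conservative peaks (red) stand at mom-1, just past the end of sys-1 and upstream of wrm-1, and pop-1 and bar-1 show only candidates below the threshold (grey).

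The ligand gene mom-2 and the receptor gene mom-5 had no conservative peak. MOM-2 is the Wnt that the P2 cell sends to EMS. The strongest of its 4 candidates, 2104 bp upstream at V:8353756-8354011, had a signal value of 30.0 and ranked 25901, with an IDR of 0.669. Of protein-coding genes, 86.7% had a stronger one, the weakest standing of the 10 members in the series-wide list. That region ranked 27182 in replicate 1 and 34123 in replicate 2, and another region led in each own list. In replicate 1 the leading region lay 3446 bp past the start, between genes, at rank 14982. In replicate 2 it lay inside the neighbouring gene mpdu-1, at rank 3247. The receptor gene mom-5, a Frizzled, had its strongest candidate 3903 bp upstream at I:9961543-9961798, in a coding exon of algn-10. It had a signal value of 53.4, rank 3305 and an IDR of 0.280, and ranked 12349 in replicate 1 and 6923 in replicate 2. Another region led in replicate 1, between genes and 1526 bp upstream of mom-5, at rank 11002.

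No peak was found at apr-1 or at either kinase gene. APR-1 is related to the tumour suppressor APC. Its strongest candidate, at I:8048461-8048716 in an intron of K04G2.7, 1448 bp upstream of apr-1, had a signal value of 40.4, rank 10514 and an IDR of 0.780. The region ranked 32184 in replicate 1 and 10594 in replicate 2. Another region led in replicate 1, in a coding exon of K04G2.10, at rank 18525. The standing of apr-1 was the weakest of the members in both own lists. A stronger strongest candidate was held by 84.8% of protein-coding genes in replicate 1 and by 66.8% in replicate 2. MOM-4 is a kinase of the TAK1 type that activates LIT-1, a Nemo-like kinase that phosphorylates POP-1. At mom-4 the strongest candidate had a signal value of 44.2, rank 7261 and an IDR of 0.255, and lay 4723 bp upstream at I:9905412-9905667, in an intron of ztf-11. This mom-4 region ranked 11491 in replicate 1 and 7594 in replicate 2, and another region led in each own list. In replicate 1 the leading region lay in a coding exon of mom-4, at rank 4883. In replicate 2 it lay in a coding exon of the neighbouring gene col-64, at rank 2078. At lit-1, the longest member at 22414 bp, 42 candidates lay in the window. The strongest, at III:13727000-13727255 in a coding exon of W06F12.2 beyond the end of lit-1, had a signal value of 59.1, rank 2185 and an IDR of 0.525. It was overlapped by a candidate of replicate 1 at rank 14612 and by none of replicate 2. Inside lit-1 lay the leading regions of both own lists. That of replicate 1 was in an intron, at rank 4501, and that of replicate 2 in a coding exon, at rank 3180.

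The beta-catenin genes spanned the range from strong to below the threshold. At wrm-1, the peak at III:5721957-5722212 lay 765 bp upstream of the start, between genes and with no small RNA gene at its summit. It had a signal value of 70.4, rank 1318 among the candidates, rank 964 among the conservative peaks and an IDR of 0.00773, close to the threshold of 0.01. The peaks next to it in signal value were that of B0379.6 above (70.44) and that of chdp-1 below (70.38). Replicate 2 ranked the region 1483 with a signal value of 44.0 and an IDR of 0.00515, which placed it in that replicate's own list. Replicate 1 ranked it 2383 with a signal value of 26.5 and an IDR of 0.833, outside its own list. It was still the strongest candidate of wrm-1 in each replicate, with summits 28 bp apart. The next candidate of wrm-1, 2009 bp upstream, had a signal value of 44.8, rank 6861 and an IDR of 0.900, and no candidate of replicate 1 overlapped it.

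The peak at sys-1, which encodes the beta-catenin that acts with POP-1, was strong in each replicate but lay past the end of the gene. It was at I:9979782-9980037, 26 bp beyond the 3′ end of sys-1 and 4884 bp from its start. The nearest start was that of eif-3.C, a gene of the translation initiation factor eIF3, 248 bp away with the summit upstream of it. The signal value was 189.8, the rank 291 among the candidates and 195 among the conservative peaks, and the IDR 4.47e-05. Replicate 1 ranked it 310 with a signal value of 70.7, and replicate 2 ranked it 298 with a signal value of 116.7, with summits 14 bp apart. At the other end of sys-1, a candidate 4225 bp upstream (I:9988891-9989146) had a signal value of 80.0 and rank 1052, and its IDR of 0.014 just missed the threshold. In the own lists its IDR was 0.911 in replicate 1 (rank 3641) and 0.831 in replicate 2 (rank 894). It lay 113 bp upstream of the histone gene his-68 and 256 bp upstream of his-67. Histone genes have near-identical copies, so the value there is uncertain, and how uniquely reads map to the region was not tested. In the promoter window of sys-1 itself the strongest candidate had a signal value of 25.8 and rank 34540.

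BAR-1 is the beta-catenin of a Wnt pathway best known from larval cells. Its strongest candidate lay 376 bp upstream of the start (bar-1 is on the minus strand) and overlapped the non-coding RNA genes F43E12.4 and F43E12.5. The signal value was 50.4, the rank 4153 and the IDR 0.0942, the lowest IDR of a strongest candidate among the members without a peak. Replicate 1 ranked it 6141 and replicate 2 ranked it 5607, and in neither replicate was it the strongest candidate of the window. Those were a candidate in an intron of the neighbouring gene pgp-10 in replicate 1, at rank 4117, and one in a coding exon of bar-1 in replicate 2, at rank 3684.

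At pop-1, the TCF gene on which the pathway acts, a region passed the threshold in replicate 2 alone. It lay in an intron 3233 bp past the start, at I:2826950-2827205, with its summit beside the snoRNA gene W10C8.17 (I:2826883-2827073). Replicate 2 ranked it 943 with a signal value of 55.1 and an IDR of 0.00804. No candidate of replicate 1 overlapped it, and in the series-wide list it had rank 2099 and an IDR of 0.808. Replicate 1 instead had its strongest candidate at rank 7394, in an intron of the neighbouring gene W03D8.3. The part of the snoRNA gene in the value of replicate 2 was not tested. The window of pop-1 held 31 candidates, or 1.72 per kb, the highest density of the 10 members, whose median was 0.85 against 0.675 for all genes.

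All 10 members had a candidate in their window in each ranked list. The same was true of 92.9% of all genes in the series-wide list (92.6% counted by summits), 95.1% in replicate 1, 92.7% in replicate 2 and 90.5% in the other series-wide list that was deposited. Set against all protein-coding genes, the strongest candidates of the members stood somewhat high in the series-wide list and nearer to the middle in replicate 1. The median member had 28.2% of genes above it in the series-wide list, 27.2% in replicate 2 and 42.6% in replicate 1, where the median gene has about 50%. Fewer than 50% of genes stood above 7 of the 10 members in the series-wide list, above 6 in replicate 1 and above 8 in replicate 2. These were not the same members in each list. For mom-5 the share of genes above was 32.5% in the series-wide list, 69.7% in replicate 1 and 53.4% in replicate 2. In the same order it was 54.1%, 43.7% and 22.7% for mom-4, and 23%, 56.4% and 11.8% for pop-1. The median signal value of the members in the series-wide list was 56.2, against 46.8 over the 18545 genes with a candidate. Their windows also held more candidates in that list, with a median of 13 against 8 for all genes. The part of this in their standing was not tested. The order of the members was mom-1, sys-1, wrm-1, pop-1, lit-1, mom-5, bar-1, mom-4, apr-1 and mom-2. Over the series-wide list and the own lists, the share of genes above ran from 0.471% to 0.561% for mom-1, from 3.36% to 3.46% for sys-1 and from 35.2% to 38.9% for bar-1, the narrowest ranges. The share of wrm-1 ran from 16.1% to 25.4%, and that of mom-2 ran from 32.1% in replicate 2 to 86.7% in the series-wide list. From wrm-1 (16.1%) to mom-2 (86.7%), neighbours in the series-wide order differed by less than the replicates did for at least one of the pair, whereas mom-1, sys-1 and wrm-1 stood apart from each other by more.

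**Figure D2:**
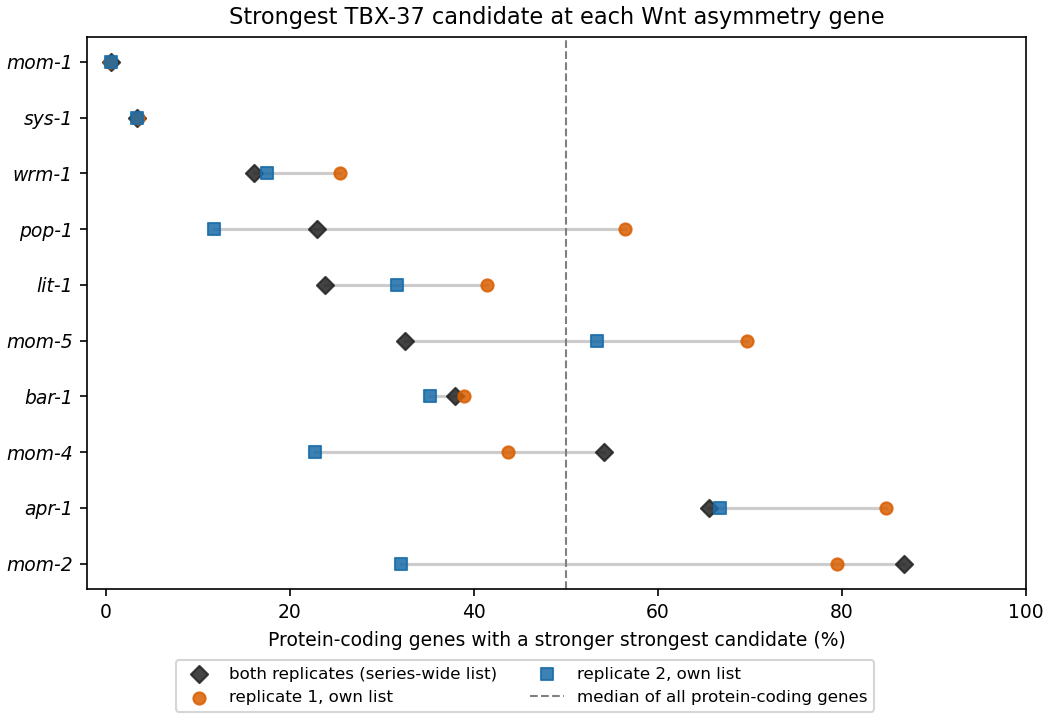
Share of protein-coding genes (%) whose strongest candidate is stronger than that of each member, in the series-wide list and in the own list of each replicate; lower is stronger, and the grey line joins the 3 values. The values of mom-1 and sys-1 nearly coincide, at 0.471% to 0.561% and at 3.36% to 3.46%, while those of pop-1 spread from 11.8% to 56.4%.

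The strongest candidates of the replicates had summits within 200 bp of each other at 3 of 10 members, mom-1, sys-1 and wrm-1, the same genes that had a conservative peak. This was so for 24.3% of all protein-coding genes (22% within 100 bp, and 22.3% for windows of 2000 bp, with the same 3 members), for 88% of those with a conservative peak and for 13.3% of those without. Conservative peaks were selected for reproducibility between these same replicates, so agreement at genes with a peak is partly built in. At the other 7 members the summits lay between 896 bp (mom-2) and 11545 bp (apr-1) apart.

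In the promoter windows, which have the same length for every gene, fewer members had candidates than in the wider windows, and the strongest candidates of the replicates met at more of them. A series-wide promoter candidate was found at 9 of 10 members, all but apr-1, against 61.9% of all genes. The own lists of both replicates had one at 7 of 10 members, against 30.7% of all genes. Among genes with a promoter candidate in both lists, the summits were within 200 bp at 6 of 7 members and at 59.4% of all such genes. The 6 were mom-1, wrm-1, bar-1, mom-4, lit-1 and mom-2, and pop-1 was the exception. Over all genes, with or without such candidates, 18.3% had promoter summits that met in this way. At mom-4 the summits lay 868 bp upstream in replicate 1 and 863 bp upstream in replicate 2, at ranks 8232 and 31369. At lit-1 they lay 712 bp and 662 bp upstream, at ranks 6791 and 30982. At bar-1 they lay 382 bp and 425 bp upstream, at ranks 6141 and 5607. The pair at mom-2 was only just within the limit, with summits 187 bp apart, 126 bp upstream in replicate 1 and 61 bp past the start in replicate 2. It was also the weakest in replicate 1, at rank 16054 with an IDR of 0.958, and had rank 28970 and an IDR of 0.928 in replicate 2. The regions at mom-4, lit-1 and bar-1 passed the threshold neither in the series-wide list nor in an own list, with IDR values from 0.421 to 0.928 in the own lists.

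**Figure D3:**
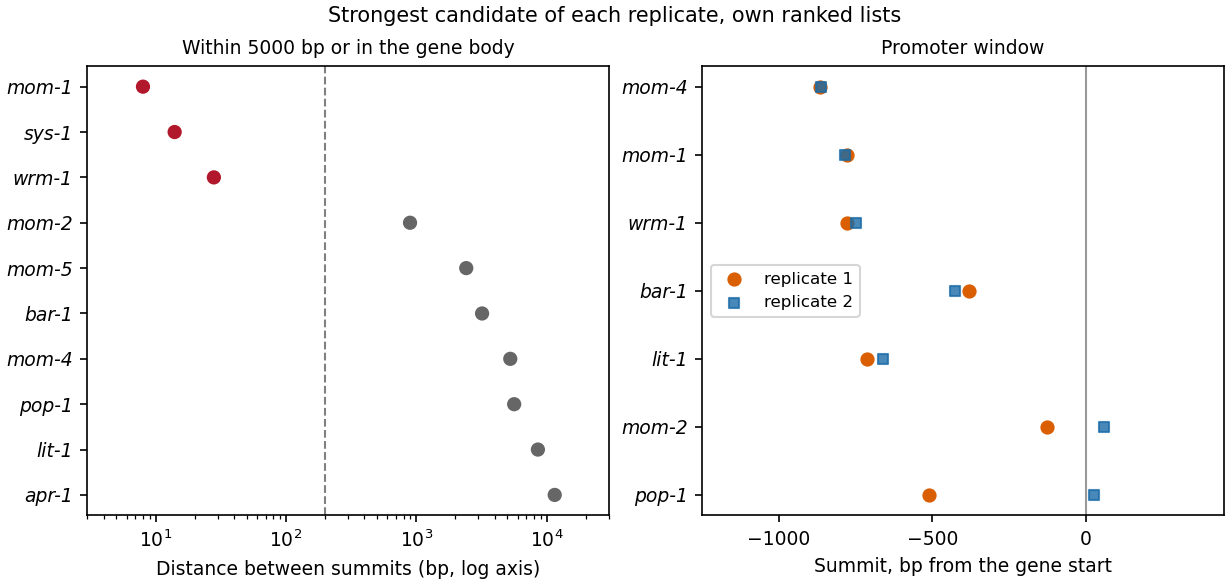
Left, distance in bp (log axis) between the summits of the strongest candidate of replicate 1 and of replicate 2 for each member, with the 200 bp limit dashed; mom-1, sys-1 and wrm-1 (red) lie at 8 to 28 bp and the others at 896 bp or more. Right, the strongest promoter candidate of each replicate by distance from the gene start in bp, for the 7 members with one in both lists; the pair of pop-1 lies farthest apart.

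The T-box consensus AGGTGTGA lay within 100 bp of the summit of the strongest candidate at 2 of 10 members, bar-1 and apr-1. It was found on either strand at 53 of 8867 strongest candidates of protein-coding genes (0.598%), at 349 of 66355 candidates (0.526%) and at 4 of 1107 conservative peaks (0.361%). In the bar-1 region printed above it lay 20 bp from the summit and 396 bp upstream of the gene start. At apr-1 it lay 72 bp from the summit and 1520 bp upstream of the start. Neither region passed the threshold, and none of the 4 conservative peaks at members held the consensus in that window. The shorter core GGTGTG, which is part of the consensus, lay also at the pop-1 candidate, so 3 of 10 members held it against 7.32% of strongest candidates. The TCF core CTTTGA was present at 1 of 10, mom-4, against 11.9%. It also lies in the wrm-1 region, 110 bp from the summit and outside the searched window. GAGAGA was found at the candidates of 3 members, mom-1, lit-1 and wrm-1 (16% of strongest candidates), GATAA at those of wrm-1, mom-4 and bar-1 (32.8%), and GGGCGG at none of the 10 (7%). These matches are descriptions of letters and not of binding sites.

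Of 37 other genes of the Wnt pathway and its early targets, 9 had a conservative peak within 5000 bp or in the gene body, or 24.3% against the 14.8% of all genes. By role these were 2 of 7 receptors and binders, 2 of 4 junction genes, 2 of 3 nuclear factors, 1 of 9 cytoplasmic genes, 1 of 2 genes of the parallel signal, 1 of 6 targets in the E and MS lineages, and 0 of 6 ligand and secretion genes. In 3 the member of the list had the nearest start: the CBP homolog cbp-1 (signal value 183.9, 919 bp upstream), the planar polarity gene vang-1 (126.7, 380 bp upstream) and the Groucho homolog gene unc-37 (63.5, 337 bp upstream). The peak of vang-1 was in the own lists of both replicates, that of cbp-1 in the list of replicate 2 alone, and that of unc-37 in neither. The strongest of the 9 was near hmp-2 (225), the beta-catenin of cell junctions, but lay 201 bp upstream of K05C4.7 and 1381 bp upstream of hmp-2. The peaks of src-1 (184.2), med-2 (158.3) and mig-1 (93.4) lay at tRNA genes, that of axl-1 (142.9) was nearest sec-12, and that of hmr-1 (98.8) lay in its own intron 38747 bp past the start. Among the genes without a peak the strongest candidates were those of the Frizzled gene lin-17 (75.7, rank 1148), the Wnt gene lin-44 (75.2, rank 1162), the casein kinase gene kin-19 (70.9, rank 1294) and the receptor kinase gene cam-1 (67.8, rank 1451).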

How the data were processed

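Deposited region lists of 2 biological replicates, 1 group, were used. The deposited notes give as their source aligned ce11 reads of the immunoprecipitation and of a control, and for thresholded lists 1 more file not used here. The peak caller, like the aligner, is not given in the sources used here. A signal value in the deposited lists is the authors' peak score; its scale differs between lists, so it was ranked within a list. The score in the deposited lists is the authors' scaled IDR, with a maximum of 1000; the conservative list starts at 830, an IDR near 0.01. For candidates, the authors' deposited −log10 IDR was converted to an IDR. The summit offset gave positions. Of the candidates past that score, 205 are not in the conservative list, and none lay at a member. There are 8 per-sample columns in the ranked list of both replicates that were not used.

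Genes came from Ensembl release 115 (WBcel235), whose chromosomes are those of ce11. A region counted for a gene if it overlapped the gene or 5000 bp on either side. No test was run, since there is 1 group; members are set beside all protein-coding genes. The replicates and the ranked lists are the only measure of error. Small RNA genes were tRNA, snoRNA, snRNA, miRNA and rRNA genes within 100 bp of a summit. The 10 members and the list of 38 other genes, of which imb-4 matched no symbol, were chosen with earlier results of these data known. Named were all members, other Wnt genes with a peak (3 beyond the planned 6 were added after their values were seen) and the 4 strongest without one. The code was checked on planted regions. Python 3.11.15, numpy 2.4.6, pandas 2.3.3 and matplotlib 3.10.9 were used. The sequence of 1 region is not reported here.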

Additional observations from a re-analysis of the deposited data

How the results depend on the processing

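The count of 3 members with a conservative peak was 2 to 4 when a replicate was left out. The own list of replicate 1 held mom-1 and sys-1 (background 7.62%), and that of replicate 2 added wrm-1 and pop-1 (background 11.4%). The count was 1 for the gene body alone (mom-1, against 2.65% of all genes) and 1 with each peak given to its nearest start (wrm-1, against 4.69%). With the highest IDR score alone it was 2, without wrm-1 (background 12.3%). It was 3 in the other series-wide list, within 2000 bp (background 9.19%), by summits, and, as chosen after seeing the data, without peaks at small RNA genes (background 11.4%). In that last setting mom-1 kept only its intron peak, which was not in the own list of replicate 1. The 9 of 37 other Wnt genes became 3 by nearest start (8.11%, against 4.69% of all genes) and 7 (18.9%) in the own list of either replicate, against 7.62% in replicate 1 and 11.4% in replicate 2. They became 6 (16.2%) within 2000 bp, against 9.19%. Without peaks at small RNA genes they were also 6 (16.2%), against 11.4%, nearer to the share of all genes. The median share of genes above a member, 28.2%, ran from 27.2% to 42.6% with a replicate left out. In promoter windows it was 18%, against 50% for the median gene. Only 61.9% of all genes have a promoter candidate, and a gene without one, such as apr-1, is given 61.9%. The 18% is therefore not on the same scale as the 28.2%. Members whose replicates led at the same place were 3 within 100 bp (22% of all genes) and 3 within 500 bp (27.2%). They were 6 in promoter windows (18.3% of all genes). No paired analysis was possible because there is 1 group. Without read counts, weak binding below the threshold cannot be told from none.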
